A study of Mus musculus with 8 samples.

Results

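The collagen gene family was followed here in total RNA sequencing of scraped back-skin epidermis from female mice. Members were the protein-coding genes whose symbol is Col, a number, the letter a and a number, without Col17a1, that had 10 or more counts summed over the 8 libraries. The rule gave 41 genes out of 16124 protein-coding genes with at least that count. Col22a1 and Col26a1, with 4 counts each, fell below the count minimum. The mice were REDD1 knockout (KO) or wild type (WT) on an F1 background of C57Bl and 129. REDD1 is the protein of Ddit4, a stress-induced inhibitor of the growth kinase complex mTORC1. KO mice and WT mice each gave 1 library of skin given 2 µg of the glucocorticoid fluocinolone acetonide (FA) 1 h before 4 µg of the phorbol ester TPA (FA+TPA), 1 library of skin given TPA alone, and 2 libraries of skin given the acetone vehicle. All applications were to shaved skin in 200 µl of acetone, and treated skin was taken 24 h after TPA. FA was always followed by TPA, so its effect on resting skin was not measured. The sources used here do not give how the knockout was made, the age of the animals or the number of animals behind a library. The spread between vehicle libraries may therefore be technical as well as biological.

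Collagens are trimers of chains that wind into a triple helix, and their family is divided by what the trimer builds. Fibrillar collagens such as types I, III and V form the cables of the dermis and are made chiefly by fibroblasts. Type IV forms the sheet of the basement membrane under the epidermis, and type VII forms the fibrils that anchor that sheet to the dermis and is made largely by keratinocytes. Loss of dermal type I and III collagen is a known part of the skin atrophy that topical glucocorticoids cause. TPA activates protein kinase C and is the standard agent for irritant inflammation and thickening of mouse epidermis.

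Library totals ran between 16874233 and 22560098 counts, so the level that 3 counts make, used here as a floor, lay between 0.133 and 0.178 CPM. CPM, the usual depth-scaled count of RNA sequencing, is normalised here by TMM, a scaling that equalises the bulk of genes between libraries. Ddit4 checked the labels: it had 7.24 CPM in KO FA+TPA, 90.2 CPM in WT FA+TPA, 4.44 CPM in KO TPA, 64.2 CPM in WT TPA, 18.8 and 18.6 CPM in KO vehicle, and 128 and 117 CPM in WT vehicle skin. The annotated noncoding transcript Gm26917 took 16.8% to 24.2% of counts in the treated libraries and 8.34% to 13.8% in the vehicle libraries. The 6 keratinocyte markers summed to between 16336 and 30182 CPM. The 16 fibroblast markers summed to between 236 and 888 CPM, and 15 of them had counts in every library, Mfap5 being the exception. Without Postn, 1 of the 16, the sums lay between 102 and 278 CPM. Transcripts typical of dermal cells were thus measurable in a preparation labelled epidermis.

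In vehicle skin the collagen genes spanned a wide range of levels, and 3 fibrillar chains together with type VII and type XVI led. Per kilobase of its longest coding transcript, Col1a1, the alpha1 chain of type I collagen, averaged 68.4 ± 23.1 CPM (SD, n = 4 vehicle libraries, both genotypes). Col7a1, the chain of the anchoring fibril, followed at 39.9 ± 12.9 CPM per kilobase, then Col1a2 at 37.5 ± 12.2, Col3a1 at 35.8 ± 7.98 and Col16a1 at 31.2 ± 12.9 CPM per kilobase. These last 4 genes differed from each other by less than their spread. The next step down held the epidermal type IV chains Col4a6 (13.2 ± 2.19 CPM per kilobase) and Col4a5 (10.8 ± 1.28), the transmembrane collagen Col23a1 (12.2 ± 3.50) and the endostatin precursor Col18a1 (9.12 ± 1.59). Col4a6 and Col23a1 differed by less than their spread, as did Col23a1 and Col4a5, whereas the libraries of Col4a6 and Col18a1 did not overlap. Without the length scaling, 19 members averaged over 10 CPM in vehicle skin and 12 averaged under 1 CPM. The low group held chains best known from cartilage, Col2a1, Col9a1, Col9a2, Col9a3 and Col11a1, none of which passed 2 CPM in any library. Col25a1, Col2a1, Col9a1 and Col9a2 stayed at or under 0.328 CPM and were too low to test, which left 37 tested members.

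**Figure D1:**
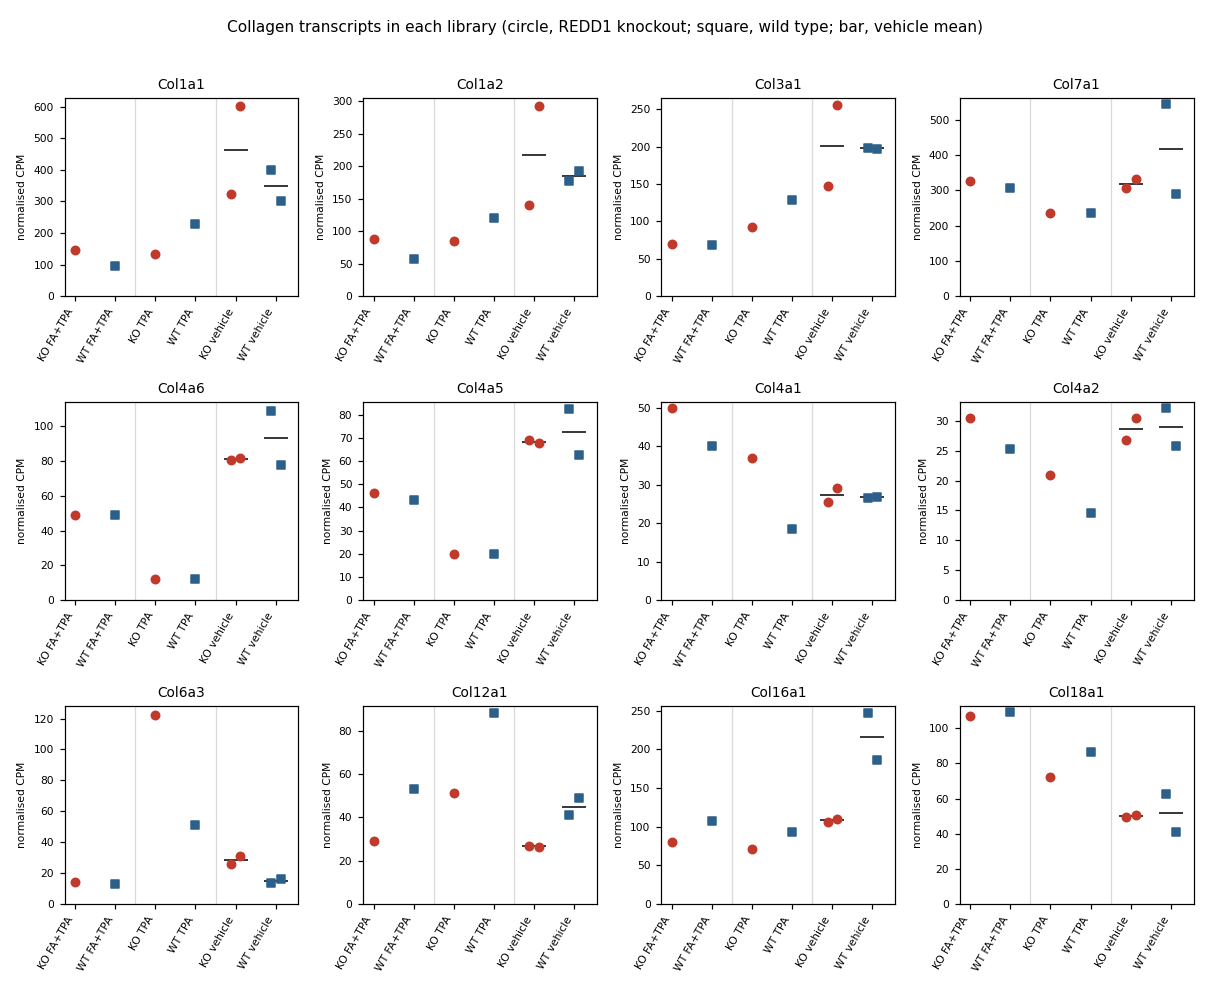
Normalised CPM (linear axis from 0) of 12 collagen genes in each of the 8 libraries, with treatments along the horizontal axis, circles for KO, squares for WT and a bar for the mean of a vehicle pair. The TPA libraries are lowest for Col4a6 at 12.4 and 11.9 CPM and highest for Col6a3 at 122 and 51.2 CPM, and the FA+TPA libraries are highest for Col18a1 at 107 and 109 CPM.

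TPA lowered more collagen genes than it raised. Of the 37 tested members, 5 rose and 16 fell at an adjusted p under 0.05, which is 56.8% of them. Among all 19251 genes tested 46% were called, 23.2% higher and 22.8% lower. The median log2 difference, TPA minus vehicle, was -0.42 over the members and -0.03 over all tested genes. The balance depends on the scaling: with library size alone, 2846 of all tested genes were called higher and 6432 lower, the all-gene median was -0.25, and 4 members rose and 18 fell with a median of -0.63. Adjusted p-values throughout come from edgeR's quasi-likelihood test with Benjamini-Hochberg adjustment over all tested genes. In TPA skin the type IV chains Col4a6 and Col4a5 and the fibrillar chains Col1a1, Col1a2, Col3a1 and Col5a1 fell, while Col6a3, Col12a1 and Col18a1 rose. In each of the 21 called members, both TPA libraries lay outside the range of the 4 vehicle libraries. The calls used these same libraries, so this is no separate support, and its share over all tested genes was not taken. Without the KO TPA library, which leaves 1 TPA library, fewer members and fewer of all tested genes were called. The median was then -0.54 over members and -0.02 over all genes.

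FA given before TPA moved fewer members. Relative to TPA alone, 5 rose and 5 fell, against 10% of all tested genes called (5.71% higher, 4.31% lower), and the median was -0.20 over members and 0.01 over all genes. The 5 that rose were Col4a6, Col4a5, Col4a2, Col4a1 and Col19a1, and the 5 that fell were Col6a3, Col12a1, Col27a1, Col8a2 and Col9a3. Set against vehicle, FA+TPA skin had 5 members higher and 18 lower, with 31.6% of all tested genes called (17.4% higher, 14.2% lower) and a median of -0.53 over members and -0.01 over all genes. With library size alone the same comparison had 1953 of all genes higher and 4982 lower, an all-gene median of -0.23, and 4 members higher and 20 lower. The 5 higher with TMM were Col18a1, Col4a1, Col11a2, Col6a4 and Col19a1. Leaving out a library of FA+TPA or TPA skin leaves 1 for that treatment. Fewer members and fewer of all tested genes were then called relative to TPA. The member median was -0.23 without WT FA+TPA, -0.05 without KO FA+TPA, -0.01 without WT TPA and -0.35 without KO TPA. The all-gene medians of these fits were -0.02, -0.01, 0.00 and -0.01. Relative to vehicle, calls also fell among members and all genes without either FA+TPA library. The member median there was -0.61 without WT FA+TPA and -0.48 without KO FA+TPA, with all-gene medians of -0.03 and -0.01. The comparison of FA+TPA with TPA and that of TPA with vehicle share the TPA libraries, so opposite signs for a gene in the pair are not independent of each other. In these bulk libraries fewer cells of a type and less RNA per cell cannot be told apart.

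**Figure D2:**
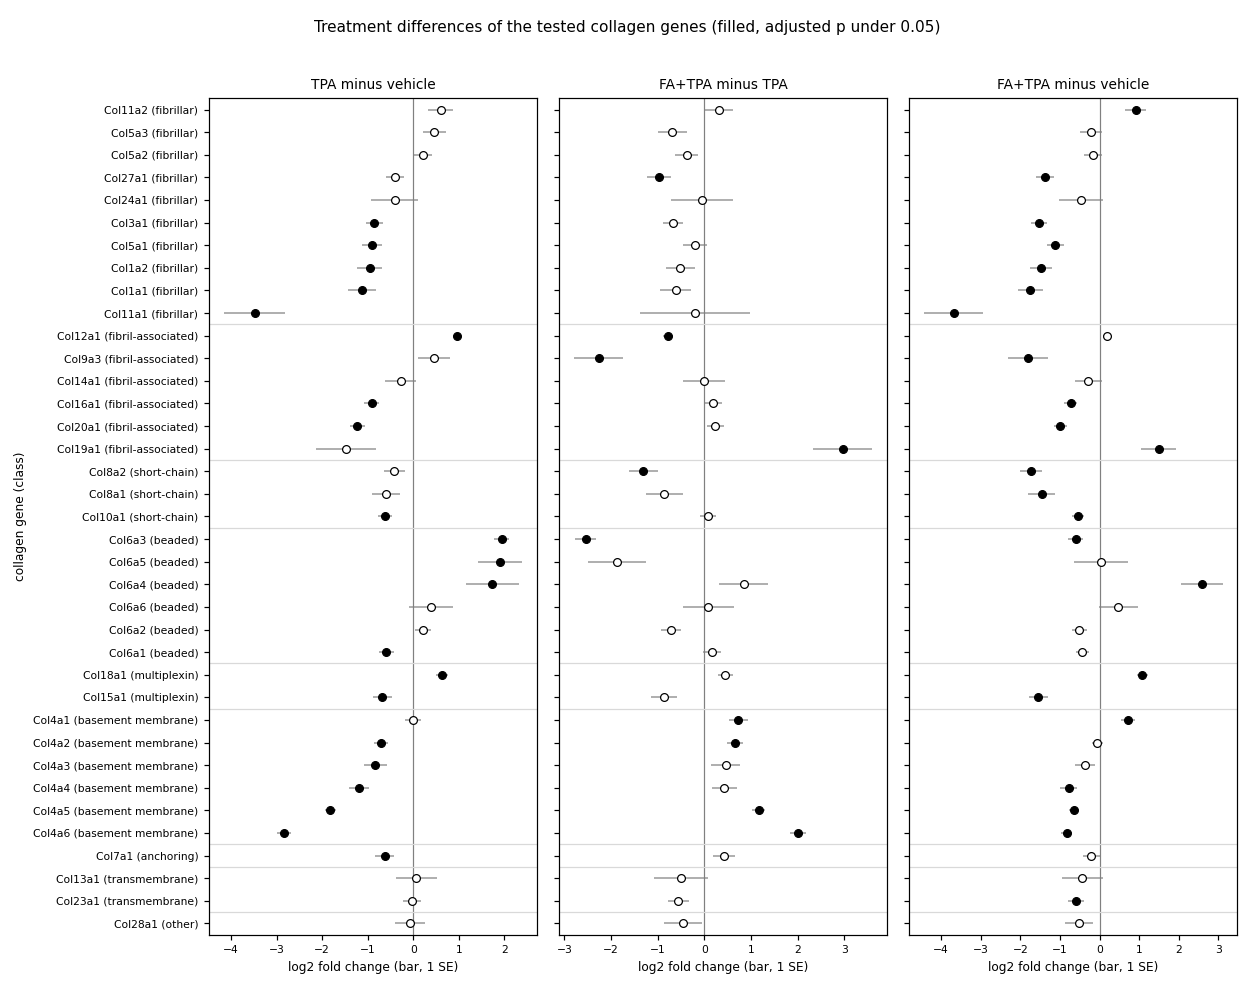
Log2 fold change of the 37 tested collagen genes for TPA minus vehicle, FA+TPA minus TPA and FA+TPA minus vehicle, grouped by class, with bars of 1 SE and filled points at an adjusted p under 0.05. Col4a6 lies at -2.84, 2.01 and -0.83 and Col6a3 at 1.95, -2.55 and -0.60 in the 3 panels.

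Among the fibrillar collagens, 5 of 10 tested members fell with TPA and none rose, against 22.8% lower and 23.2% higher among all tested genes. Col1a1 had 147 CPM in KO FA+TPA and 95.8 CPM in WT FA+TPA skin, 134 CPM in KO TPA and 229 CPM in WT TPA skin, against 322 and 601 CPM in KO vehicle and 398 and 300.5 CPM in WT vehicle skin. All 4 treated libraries were below all 4 vehicle libraries. Its log2 difference was -1.13 ± 0.30 (SE) for TPA minus vehicle (adjusted p = 0.0112) and -1.74 ± 0.31 for FA+TPA minus vehicle (adjusted p = 0.0018). Col1a2, which supplies the alpha2 chain of the same trimer, had 88.5 CPM in KO FA+TPA, 57.1 CPM in WT FA+TPA, 84.2 CPM in KO TPA, 120.5 CPM in WT TPA, 141 and 293 CPM in KO vehicle, and 178 and 192 CPM in WT vehicle skin. Again no treated library reached the lowest vehicle library. Col1a2 differed by -0.96 ± 0.28 for TPA minus vehicle (adjusted p = 0.0157) and by -1.47 ± 0.28 for FA+TPA minus vehicle (adjusted p = 0.00284).

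Col3a1, the type III chain that copolymerises with type I, had 69.2 CPM in KO FA+TPA and 68.7 CPM in WT FA+TPA skin, 93.0 CPM in KO TPA and 129 CPM in WT TPA skin, against 147 and 255 CPM in KO vehicle and 198 and 197 CPM in WT vehicle skin. The libraries thus fell into FA+TPA, TPA and vehicle levels with no overlap. Its difference was -0.86 ± 0.19 for TPA minus vehicle (adjusted p = 0.00431) and -1.53 ± 0.20 for FA+TPA minus vehicle (adjusted p = 0.000274). Relative to TPA alone, however, FA+TPA did not pass the test for these 3 chains in the reported fit: Col3a1 stood at -0.68 ± 0.22 (adjusted p = 0.0837), Col1a1 at -0.62 ± 0.34 (adjusted p = 0.316) and Col1a2 at -0.51 ± 0.31 (adjusted p = 0.37). Other settings did call them lower. Col3a1 was called under DESeq2 (adjusted p = 0.0095), with library-size scaling alone (adjusted p = 0.0452), with no low-count filter (adjusted p = 0.000126) and without the first or second KO vehicle library (adjusted p = 0.0384 and 0.0112). With no filter Col1a1 (adjusted p = 0.00583) and Col1a2 (adjusted p = 0.0227) were also called, and without the KO TPA library Col1a1 stood at -1.22 (adjusted p = 0.0499). The TPA calls rested on the KO TPA library. Without it Col1a1 stood at -0.54 (adjusted p = 0.197), Col1a2 at -0.52 (adjusted p = 0.252) and Col3a1 at -0.58 (adjusted p = 0.101), and DESeq2 gave Col1a1 an adjusted p of 0.0525 and Col1a2 one of 0.0568. Without the WT FA+TPA library, the FA+TPA minus vehicle differences were -1.48 for Col1a1 (adjusted p = 0.0522) and -1.18 for Col1a2 (adjusted p = 0.0735), and the Col3a1 call held under every alternative run.

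The minor fibrillar chains followed different courses. Col5a1, whose trimer nucleates type I fibrils, differed by -0.91 ± 0.22 for TPA minus vehicle (adjusted p = 0.00591), a call lost without the KO TPA library (-0.77, adjusted p = 0.0857). Its partner chain Col5a2, which lies 24.6 kb from Col3a1 on chromosome 1, did not pass the test, at 0.21 ± 0.21 (adjusted p = 0.444). Col27a1, a fibrillar collagen known from cartilage, had 3.80 CPM in KO FA+TPA, 4.57 CPM in WT FA+TPA, 8.52 CPM in KO TPA, 7.63 CPM in WT TPA, 9.32 and 7.93 CPM in KO vehicle, and 15.4 and 11.6 CPM in WT vehicle skin. It was the only tested fibrillar member called for FA+TPA minus TPA, at -0.98 ± 0.25 (adjusted p = 0.0328), and that call was lost without the KO TPA library (-0.64, adjusted p = 0.258) and without either FA+TPA library. Col11a1 reached 1.86 CPM in a KO vehicle library and lay under the 3-count floor in all 4 treated libraries, so its call as lower carries no usable fold. Col11a2, Col5a3 and Col24a1 were not called with TPA, and Col11a2 was higher in FA+TPA than in vehicle skin (0.91 ± 0.26, adjusted p = 0.0226), a call lost with library-size scaling alone (adjusted p = 0.0546) and without the first KO vehicle library or either FA+TPA library.

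The fall of the type I and III transcripts was set beside markers of the cells that make them. Of the 15 tested fibroblast markers, 8 were higher and 3 lower with TPA, against 23.2% and 22.8% of all tested genes, and their median log2 difference was 1.10. Marker lists of other non-keratinocyte cells were mixed. Higher were 4 of 6 macrophage markers (1 lower, median 2.20) and 3 of 5 tested endothelial markers (none lower, median 1.27). The macrophage sum was 282 CPM in KO TPA but 105 CPM in WT TPA, within the vehicle range of 104 to 117 CPM. Of 5 tested dermal papilla markers 1 was higher and 2 were lower (median -0.94). Smooth muscle and pericyte markers (median -0.46) and Schwann markers (-0.20) each had 1 lower and none higher. Skeletal muscle (-0.96) and adipocyte markers (0.54) had none called. Dcn, the small proteoglycan that coats collagen fibrils, had 31.6 CPM in KO FA+TPA, 29.0 CPM in WT FA+TPA, 44.3 CPM in KO TPA, 19.7 CPM in WT TPA, 5.57 and 10.2 CPM in KO vehicle, and 4.97 and 23.1 CPM in WT vehicle skin. The second WT vehicle library stood apart from the other vehicle libraries for Dcn and lay above the WT TPA library. Pdgfra, the receptor that marks dermal fibroblasts, rose by 2.04 ± 0.37 on the log2 scale (adjusted p = 0.0011), and the microfibril genes Fbn1 (1.99 ± 0.29) and Fbln1 (1.58 ± 0.11) also rose. Lum and Dpt, of the fibroblast matrix, stood at 0.30 and 0.70 and did not pass the test, and Fap, a fibroblast surface protease (-1.83 ± 0.26), Pi16 (-1.09 ± 0.32) and Sparc, a collagen-binding matrix protein (-0.51 ± 0.16), fell. The summed CPM of Col1a1, Col1a2 and Col3a1 per CPM of Dcn was 9.65 in KO FA+TPA, 7.63 in WT FA+TPA, 7.02 in KO TPA, 24.3 in WT TPA, 109 and 113 in KO vehicle, and 156 and 29.8 in WT vehicle skin. That ratio was lower in all 4 treated libraries than in any vehicle library. The result depends on the marker: per CPM of Sparc the sum was 8.61 in KO FA+TPA, 5.77 in WT FA+TPA, 10.5 in KO TPA, 17.9 in WT TPA, 20.2 and 25.9 in KO vehicle, and 20.3 and 14.4 in WT vehicle skin, so that WT TPA lay above the second WT vehicle library. For FA+TPA minus TPA, 3 of the 15 fibroblast markers fell and none rose, with a median of -0.62, against 5.71% of all tested genes higher and 4.31% lower, and for FA+TPA minus vehicle 4 rose and 2 fell. The part of dermal cell content in the collagen differences was not tested beyond these values.

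**Figure D3:**
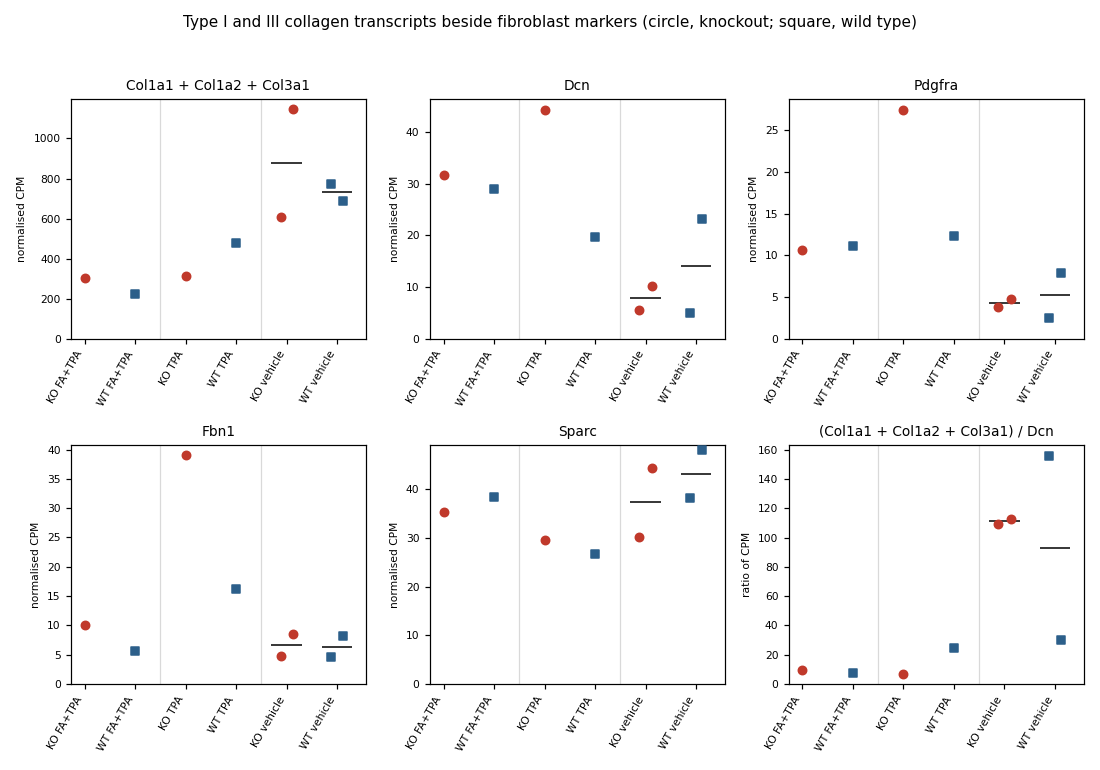
Normalised CPM (linear axis from 0) in each library of Col1a1, Col1a2 and Col3a1 summed, of the fibroblast markers Dcn, Pdgfra and Fbn1 (called higher with TPA) and Sparc (called lower), and the ratio of that sum to Dcn, with circles for KO, squares for WT and a bar for the mean of a vehicle pair. The ratio lies between 7.02 and 24.3 in the treated libraries and between 29.8 and 156 in the vehicle libraries.

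Among members averaging over 1 CPM in vehicle skin, the basement membrane chain Col4a6 had the largest called fall with TPA. Type IV collagen is built from 6 chains that assemble as 3 trimers: alpha1 with alpha2 in all basement membranes, alpha3 with alpha4 and alpha5 chiefly in kidney, lung and eye, and alpha5 with alpha6 in places that include the epidermal basement membrane. With TPA, 5 of the 6 fell and none rose, against 22.8% lower and 23.2% higher among all tested genes. With FA+TPA relative to TPA, 4 rose and none fell, against 5.71% higher and 4.31% lower. Col4a6 had 48.9 CPM in KO FA+TPA and 49.0 CPM in WT FA+TPA skin, 12.4 CPM in KO TPA and 11.9 CPM in WT TPA skin, against 80.9 and 82.1 CPM in KO vehicle and 109 and 77.6 CPM in WT vehicle skin. The 3 treatments did not overlap, and KO and WT libraries lay close together in each treated pair. Col4a6 differed by -2.84 ± 0.15 for TPA minus vehicle (adjusted p = 3.5e-07), by 2.01 ± 0.16 for FA+TPA minus TPA (adjusted p = 7.19e-05) and by -0.83 ± 0.13 for FA+TPA minus vehicle (adjusted p = 0.000863).

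Col4a5 took the same course at a smaller size. It had 46.0 CPM in KO FA+TPA and 43.2 CPM in WT FA+TPA skin, 19.7 CPM in KO TPA and 20.1 CPM in WT TPA skin, against 69.0 and 67.7 CPM in KO vehicle and 82.2 and 62.6 CPM in WT vehicle skin. As for Col4a6, the FA+TPA pair stood between the TPA pair and the vehicle libraries with no overlap. The differences were -1.82 ± 0.12 for TPA minus vehicle (adjusted p = 1.49e-06), 1.17 ± 0.13 for FA+TPA minus TPA (adjusted p = 0.000515) and -0.66 ± 0.11 for FA+TPA minus vehicle (adjusted p = 0.00149). All 6 calls on Col4a6 and Col4a5 held under every alternative run.

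The same pair of genes sits head to head on chromosome X, with 1308 bases between their annotated start sites in GENCODE M21 (build GRCm38, the same assembly as mm10). The 200 bases before each RefSeq start site (build GRCm38.p6) are shown because these neighbours moved together, and that of Col6a3 beside them because Col6a3 moved the opposite way in TPA and FA+TPA skin. Sequences read 5′ to 3′ on the gene's own strand, and capitals mark the GC box, GGGCGG on either strand, and the box CCAAT.
Col4a6, chrX:141474077-141474276, minus strand: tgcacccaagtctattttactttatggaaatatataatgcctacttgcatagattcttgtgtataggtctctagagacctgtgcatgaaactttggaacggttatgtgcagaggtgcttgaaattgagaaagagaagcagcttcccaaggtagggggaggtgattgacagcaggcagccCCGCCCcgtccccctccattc
Col4a5, chrX:141475219-141475418, plus strand: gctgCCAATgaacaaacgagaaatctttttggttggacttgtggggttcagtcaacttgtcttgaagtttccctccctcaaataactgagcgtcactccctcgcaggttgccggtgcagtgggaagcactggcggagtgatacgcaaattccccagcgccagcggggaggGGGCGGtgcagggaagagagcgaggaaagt
Col6a3, chr1:90843972-90844171, minus strand: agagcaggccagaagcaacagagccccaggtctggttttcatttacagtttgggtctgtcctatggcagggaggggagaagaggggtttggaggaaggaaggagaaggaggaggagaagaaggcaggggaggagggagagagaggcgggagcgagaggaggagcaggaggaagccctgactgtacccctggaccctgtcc

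Both type IV windows held 1 GC box close to the RefSeq start site, Col4a5 also held 1 CCAAT box, and the Col6a3 window held neither. The RefSeq start of Col4a5, at base 141475419, lies past its GENCODE start at base 141475385. The end of that window, with its GC box, is therefore inside the GENCODE gene. Such windows were found for 34 of the 41 members. GGGCGG was present on either strand in 21 of the 34 members and in 31.0% of all 32851 windows, and CCAAT in 9 of 34 and 29.3% of windows. The AP-1 motif TGANTCA, bound by the Fos and Jun proteins that TPA activates, was present in 1 of the 34 members, Col6a1, and in 5.48% of windows. The glucocorticoid receptor's palindrome, taken as GNACA, a gap of 3 bases and TGTNC, was in none of the 34 members and in 0.271% of windows. TATAAA was in 3 of 34 members and 9.96% of windows. These are matches of letters in short windows and no measure of binding.

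The alpha1 and alpha2 chains of type IV, neighbours on chromosome 8 whose transcripts overlap by 22 bases on opposite strands, behaved differently from Col4a5 and Col4a6. Col4a1 had 49.8 CPM in KO FA+TPA and 40.0 CPM in WT FA+TPA skin, 36.9 CPM in KO TPA and 18.4 CPM in WT TPA skin, against 25.5 and 29.2 CPM in KO vehicle and 26.5 and 26.9 CPM in WT vehicle skin. The TPA libraries lay on opposite sides of the vehicle range, and TPA minus vehicle was 0.00 ± 0.18 (adjusted p = 0.987). Without the WT TPA library it was 0.39 (adjusted p = 0.0769). Both FA+TPA libraries were above all others, giving 0.72 ± 0.17 for FA+TPA minus vehicle (adjusted p = 0.00869), which was lost without either FA+TPA library. The call for FA+TPA minus TPA, 0.72 ± 0.20 (adjusted p = 0.0468), was lost under library-size scaling alone (adjusted p = 0.0543) and when any of several libraries was left out.

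Col4a2 had 30.5 CPM in KO FA+TPA and 25.3 CPM in WT FA+TPA skin, 20.9 CPM in KO TPA and 14.6 CPM in WT TPA skin, against 26.7 and 30.4 CPM in KO vehicle and 32.2 and 25.8 CPM in WT vehicle skin. The TPA pair was lowest, and the FA+TPA pair lay in or near the vehicle range. Col4a2 differed by -0.71 ± 0.15 for TPA minus vehicle (adjusted p = 0.00267; -0.50 and adjusted p = 0.0624 without the WT TPA library) and by 0.65 ± 0.17 for FA+TPA minus TPA (adjusted p = 0.032; lost without either FA+TPA library or the WT TPA library). FA+TPA minus vehicle was -0.05 ± 0.14 (adjusted p = 0.813). The ratio of Col4a1 to Col4a2 was 1.63 in KO FA+TPA, 1.58 in WT FA+TPA, 1.77 in KO TPA and 1.26 in WT TPA skin, and between 0.823 and 1.04 in the vehicle libraries. Every treated library was thus above every vehicle library in this ratio. Col4a3 and Col4a4, a head-to-head pair on chromosome 1 with 71 bases between start sites, stayed between 1.11 and 4.80 CPM in all libraries. Both fell with TPA, Col4a4 by 1.20 and Col4a3 by 0.83 on the log2 scale. The Col4a3 call was lost without either TPA library (adjusted p = 0.22 without KO TPA and 0.0843 without WT TPA).

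Of the 16 basement membrane partners of type IV collagen, 3 rose and 4 fell with TPA, close to the 46% called among all tested genes. Hspg2, the heparan sulfate proteoglycan perlecan, rose (1.29 ± 0.11), while the laminin chains Lama3 (-0.67 ± 0.08) and Lamb3 (-0.78 ± 0.12) fell. With FA+TPA relative to TPA, 2 rose and 3 fell, where 10% of all tested genes were called. Among them were Lamc3 (1.57 ± 0.32) and Lamb3 (0.58 ± 0.14) upward and Hspg2 (-1.06 ± 0.13) downward.

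The anchoring fibril gene Col7a1 had 328 CPM in KO FA+TPA and 306 CPM in WT FA+TPA skin, 236 CPM in KO TPA and 237 CPM in WT TPA skin, against 306 and 333 CPM in KO vehicle and 546 and 291 CPM in WT vehicle skin. The first WT vehicle library stood apart above the rest. TPA minus vehicle was -0.63 ± 0.21 (adjusted p = 0.0318), a call lost without either TPA library and under DESeq2 (adjusted p = 0.126). The FA+TPA comparisons were not called in the reported fit. FA+TPA minus TPA, at 0.43 there, was called higher with no low-count filter (0.41, adjusted p = 0.0459). It was also called without the first WT vehicle library (0.42). Col18a1, a multiplexin of basement membranes whose C-terminal piece is endostatin, had 107 CPM in KO FA+TPA and 109 CPM in WT FA+TPA skin, 72.3 CPM in KO TPA and 86.3 CPM in WT TPA skin, against 49.7 and 50.7 CPM in KO vehicle and 62.7 and 41.1 CPM in WT vehicle skin. FA+TPA, TPA and vehicle libraries formed 3 descending levels with no overlap, although FA+TPA minus TPA was not called (0.45 ± 0.16, adjusted p = 0.114; called with no low-count filter and without either WT vehicle library). Col18a1 was higher in TPA than in vehicle skin by 0.63 ± 0.14 (adjusted p = 0.00347; 0.52 and adjusted p = 0.0583 without the WT TPA library) and in FA+TPA than in vehicle skin by 1.08 ± 0.14 (adjusted p = 0.000204), and the FA+TPA difference held under every alternative run. The other multiplexin, Col15a1, went the opposite way, at -0.68 ± 0.21 for TPA minus vehicle (adjusted p = 0.0236) and -1.54 ± 0.24 for FA+TPA minus vehicle (adjusted p = 0.00073). Its TPA call was lost under DESeq2 and without any of 3 libraries, and its FA+TPA call held throughout.

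Type VI collagen makes beaded microfibrils around cells, with Col6a1 and Col6a2 joined by Col6a3 or by one of its late relatives. Col6a3 gave the clearest rise with TPA in the family. It had 14.6 CPM in KO FA+TPA and 12.8 CPM in WT FA+TPA skin, 122 CPM in KO TPA and 51.2 CPM in WT TPA skin, against 25.7 and 31.3 CPM in KO vehicle and 13.8 and 16.5 CPM in WT vehicle skin. Both TPA libraries were above all others, and the KO library was the higher of the TPA pair. Col6a3 differed by 1.95 ± 0.17 for TPA minus vehicle (adjusted p = 6.94e-06) and by -2.55 ± 0.22 for FA+TPA minus TPA (adjusted p = 0.000101), and both calls held under every alternative run. For FA+TPA minus vehicle it was -0.60 ± 0.19 (adjusted p = 0.0368), with overlapping libraries, and that call was lost without the KO FA+TPA library (-0.19, adjusted p = 0.575).

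Its trimer partners did not share the rise. Col6a1 had 19.0 CPM in KO FA+TPA and 14.7 CPM in WT FA+TPA skin, 16.8 CPM in KO TPA and 13.2 CPM in WT TPA skin, against 18.5 and 23.9 CPM in KO vehicle and 24.4 and 23.8 CPM in WT vehicle skin. It fell with TPA by 0.59 ± 0.16 on the log2 scale (adjusted p = 0.0124), a call lost without the WT TPA library (-0.42, adjusted p = 0.171). Col6a2 was at 0.20 ± 0.18 (adjusted p = 0.371). The CPM ratio of Col6a3 to Col6a1 was 0.768 in KO FA+TPA, 0.870 in WT FA+TPA, 7.29 in KO TPA, 3.87 in WT TPA, 1.39 and 1.31 in KO vehicle, and 0.567 and 0.693 in WT vehicle skin. Both TPA libraries stood above the other 6 in that ratio. The related chains Col6a4, Col6a5 and Col6a6, which lie in a row on chromosome 9, did not pass 0.852 CPM in any library. Col6a5 was called higher with TPA, with 0.852 CPM in KO TPA and 0.739 CPM in WT TPA skin against 0.113 to 0.413 CPM in vehicle skin, and Col6a4 likewise with 0.538 and 0.308 CPM against 0.0453 to 0.187 CPM. Vehicle libraries of both genes reached down to the 3-count floor or below it, and both calls were lost under DESeq2 and without the KO TPA library.

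The fibril-associated collagens, which decorate fibrils without forming them, split. Col12a1, found on fibrils of skin and tendon, had 29.2 CPM in KO FA+TPA and 52.9 CPM in WT FA+TPA skin, 51.4 CPM in KO TPA and 88.2 CPM in WT TPA skin, against 27.0 and 26.5 CPM in KO vehicle and 41.1 and 48.7 CPM in WT vehicle skin. Within either genotype the TPA library was the highest. Col12a1 differed by 0.96 ± 0.09 for TPA minus vehicle (adjusted p = 1.25e-05) and by -0.77 ± 0.11 for FA+TPA minus TPA (adjusted p = 0.00145), and it was not called for FA+TPA minus vehicle (0.18 ± 0.09, adjusted p = 0.168). Col16a1, which keratinocytes and fibroblasts both make, had 80.8 CPM in KO FA+TPA and 107 CPM in WT FA+TPA skin, 71.1 CPM in KO TPA and 93.6 CPM in WT TPA skin, against 107 and 109.6 CPM in KO vehicle and 247 and 186 CPM in WT vehicle skin. Its TPA minus vehicle difference was -0.91 ± 0.16 (adjusted p = 0.00106), and with FA+TPA relative to TPA it was 0.19 ± 0.18 (adjusted p = 0.607). FA+TPA minus vehicle was -0.72 ± 0.16 (adjusted p = 0.00658), lost without the WT FA+TPA library (-0.53, adjusted p = 0.147). Col20a1 was lower in TPA skin (-1.23 ± 0.16, adjusted p = 0.00012) and in FA+TPA skin (-0.99 ± 0.16, adjusted p = 0.000895) than in vehicle skin. It overlaps another annotated transcript on the same strand by 79 bases, so part of its counts may belong to that transcript.

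The low members of these classes need their levels beside their calls. Col9a3 was lower in FA+TPA (0.181 CPM in KO and 0.381 CPM in WT skin) than in TPA skin (1.75 CPM in KO and 0.985 CPM in WT skin), and the call was lost without any of 3 of those 4 libraries. Col19a1 was called higher in FA+TPA than in TPA skin, but the WT FA+TPA library alone stood out, at 1.91 CPM against 0.483 CPM in KO FA+TPA and at most 0.134 CPM in TPA skin. The short-chain collagens Col8a1 and Col8a2, made by endothelial and other cells, and Col10a1, the hypertrophic cartilage collagen, were low, with Col10a1 the highest of them in every library. All of the 3 were lower in FA+TPA than in vehicle skin (Col8a1 -1.46 ± 0.34, Col8a2 -1.72 ± 0.28, Col10a1 -0.54 ± 0.15), and Col10a1 was also lower in TPA skin (-0.62 ± 0.15). The Col8a2 call held under every alternative run. That of Col8a1 was lost without the WT FA+TPA library (adjusted p = 0.12), and that of Col10a1 without the first KO vehicle library (adjusted p = 0.0567) or either FA+TPA library (adjusted p = 0.194 without KO and 0.111 without WT), and its TPA call without the KO TPA library (adjusted p = 0.092). Relative to TPA alone, Col8a2 was called lower in FA+TPA skin (-1.31 ± 0.31, adjusted p = 0.024), with overlapping libraries, and that call was lost under DESeq2 and without any of the 4 treated libraries. Col10a1 lies within Nt5dc1 on the opposite strand, with 18 bases of exon overlap, and reads there cannot be assigned without a known strand setting. Opposite-strand exon overlaps were larger for some other called members. Col4a3 overlaps C430014B12Rik by 563 bases (258 and 111 counts over the 8 libraries). Col9a3 overlaps Tcfl5 by 234 bases (145 and 22 counts). The transmembrane collagens Col13a1 and Col23a1 and the unclassed Col28a1 were not called with TPA, at 0.07, -0.03 and -0.07. Col23a1 was lower in FA+TPA than in vehicle skin (-0.59 ± 0.20, adjusted p = 0.0438), a call lost without either WT vehicle library or the WT FA+TPA library.

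Genes of collagen making and breakdown were described from lists chosen with these data known. Of 29 tested genes of collagen synthesis, 8 rose and 4 fell with TPA, no larger a share than the 46% called among all tested genes. P4hb (1.38 ± 0.09) and P4ha2 (1.03 ± 0.14), subunits of the prolyl hydroxylase that stabilises the helix, rose, as did the prolyl isomerase Ppib (0.61 ± 0.10). Adamts14, a protease that trims the N-terminal propeptide of fibrillar procollagen, fell (-2.58 ± 0.22): it had 45.8 CPM in KO FA+TPA, 41.1 CPM in WT FA+TPA, 17.03 CPM in KO TPA, 22.5 CPM in WT TPA, 90.1 and 108 CPM in KO vehicle, and 171 and 106 CPM in WT vehicle skin. With FA+TPA relative to TPA, 5 of the 29 rose and 1 fell, where 10% of all tested genes were called. Lox, the lysyl oxidase that crosslinks fibrils, had 8.99 CPM in KO FA+TPA and 17.2 CPM in WT FA+TPA skin, 2.15 CPM in KO TPA and 1.05 CPM in WT TPA skin, against 0.515 to 1.95 CPM in vehicle skin. Its FA+TPA libraries were above all others (2.96 ± 0.49 relative to TPA, adjusted p = 0.00362). Adamts14 (1.16 ± 0.23), the related protease Adamts2 (1.63 ± 0.33) and P3h4, a partner in a procollagen hydroxylation complex (0.49 ± 0.11), also rose.

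Of 14 tested genes of collagen breakdown, 11 rose and 1 fell with TPA (46% of all tested genes called), and with FA+TPA relative to TPA none rose and 4 fell (10% called). Mmp3, stromelysin, had 4.10 CPM in KO FA+TPA and 2.92 CPM in WT FA+TPA skin, 127 CPM in KO TPA and 49.3 CPM in WT TPA skin, against 0.790 to 1.19 CPM in vehicle skin. Its differences were 6.38 ± 0.23 for TPA minus vehicle and -4.56 ± 0.27 for FA+TPA minus TPA. The collagenase Mmp13 and the inhibitor Timp1 took the same course, with Timp1 at 0.663 CPM in KO FA+TPA, 0.254 CPM in WT FA+TPA, 3.77 CPM in KO TPA, 4.62 CPM in WT TPA and at most 0.363 CPM in vehicle skin. The gelatinase Mmp9 was lower in FA+TPA than in TPA skin (-2.23 ± 0.19). Of 8 collagen receptors, Ddr2, a receptor kinase for fibrillar collagen, rose with TPA (2.02 ± 0.12) and was lower in FA+TPA than in TPA skin (-0.90 ± 0.14). The integrin chain Itgb1 rose (0.43 ± 0.08) and Ddr1, the epithelial collagen receptor, fell (-0.43 ± 0.13). Of 14 regulators in the TGF-beta pathway, which drives fibrillar collagen transcription, 6 rose and 4 fell with TPA (46% of all tested genes called), including Tgfb1 (0.87 ± 0.15), Tgfbr2 (0.70 ± 0.09) and Tgfbr3 (-0.99 ± 0.08). With FA+TPA relative to TPA, 1 of them rose, Tgfbr3 (0.43 ± 0.09), and 1 fell, Tgfbr1 (-0.47 ± 0.11), a share near the 10% of all tested genes.

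**Figure D4:**
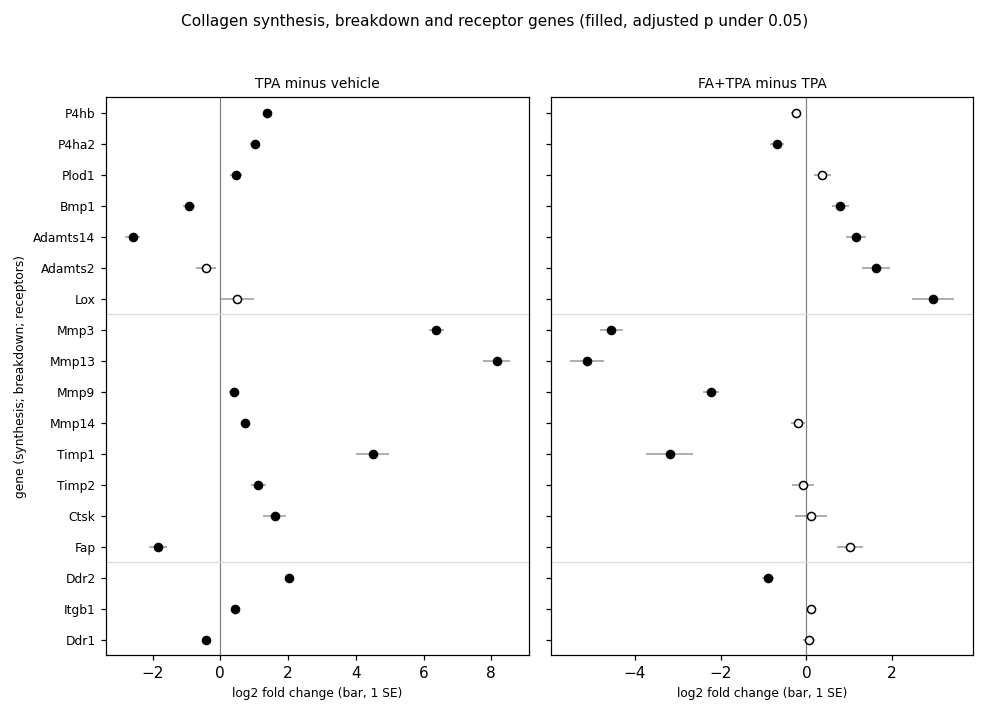
Log2 fold change of 18 genes of collagen synthesis, breakdown and reception, chosen from the lists, for TPA minus vehicle and FA+TPA minus TPA, with bars of 1 SE and filled points at an adjusted p under 0.05. Mmp3 lies at 6.38 and -4.56, Adamts14 at -2.58 and 1.16 and Ddr2 at 2.02 and -0.90 in the 2 panels.

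REDD1 knockout skin differed from WT skin in few collagen genes. Over all treatments, 2 of 37 tested members were higher and 2 lower in KO than in WT skin, which is 10.8% of them. Among all tested genes 3.58% were called (1.98% higher, 1.6% lower). With library size alone, 640 of all genes were higher and 233 lower, and 3 members were higher and 2 lower. Col12a1 was lower in KO in every treatment, with a difference of -0.78 ± 0.08 (adjusted p = 0.000408), and Col16a1 was also lower (-0.71 ± 0.13, adjusted p = 0.0151). Col6a3 was higher (0.86 ± 0.15, adjusted p = 0.0122), as was Col8a2, a chain of Descemet's membrane and vessel walls (1.18 ± 0.20, adjusted p = 0.0101). Col8a2 had 1.27 CPM in KO FA+TPA against 0.445 CPM in WT FA+TPA, 3.09 CPM in KO TPA against 1.17 CPM in WT TPA, and 4.12 and 3.35 CPM in KO vehicle against 1.75 and 1.91 CPM in WT vehicle skin. The KO library was the higher in each treatment. The Col16a1 call over all treatments was lost without either KO vehicle library (adjusted p = 0.058 and 0.057). The fibrillar chains were not called, with Col1a1 at 0.17 ± 0.24 and Col3a1 at -0.10 ± 0.15.

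In vehicle skin alone, 1 member was higher and 3 were lower in KO, again 10.8% of the 37 tested. Among all tested genes 2.17% were called (1.44% higher, 0.727% lower). Without the second WT vehicle library, which leaves 1 WT vehicle library, more members and more of all tested genes were called. The median log2 difference was then 0.16 over members and 0.01 over all genes, against 0.11 and -0.02 with all 8 libraries. Col16a1 had 107 and 109.6 CPM in KO vehicle, against 247 and 186 CPM in WT vehicle skin (-1.002 ± 0.15, adjusted p = 0.00896). Col6a3 had 25.7 and 31.3 CPM in KO vehicle, against 13.8 and 16.5 CPM in WT vehicle skin (0.91 ± 0.16, adjusted p = 0.0158). For both genes the KO pair and the WT pair lay apart, and both calls held under every alternative run. Col12a1 (-0.75 ± 0.13, adjusted p = 0.0204) was not called without the second KO vehicle library (adjusted p = 0.0618). Col23a1 averaged 53.2 ± 4.49 CPM in KO vehicle and 84.4 ± 13.5 CPM in WT vehicle skin (SD, n = 2 each), with no overlap (-0.67 ± 0.14, adjusted p = 0.042), a call lost under limma-voom (adjusted p = 0.0585) and without the first KO vehicle library (-0.58, adjusted p = 0.208). Markers of other tissue differed between the same libraries. The 6 skeletal muscle markers summed to 186 and 72.2 CPM in KO vehicle, against 21.6 and 5.48 CPM in WT vehicle skin, with 5 of 6 called higher, and the 5 sebaceous markers to 4878 and 6075 CPM in KO vehicle, against 1990 and 2900 CPM in WT vehicle skin, with 5 of 5 called higher. Among the 15 tested fibroblast markers Postn had the lowest adjusted p between genotypes in vehicle skin (0.45 ± 0.18, adjusted p = 0.338). The part of these tissue markers in the genotype differences was not tested. The nearest member to Ddit4 on chromosome 10, Col13a1 at 1.89 Mb, was not called (adjusted p = 0.174 over all treatments).

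**Figure D5:**
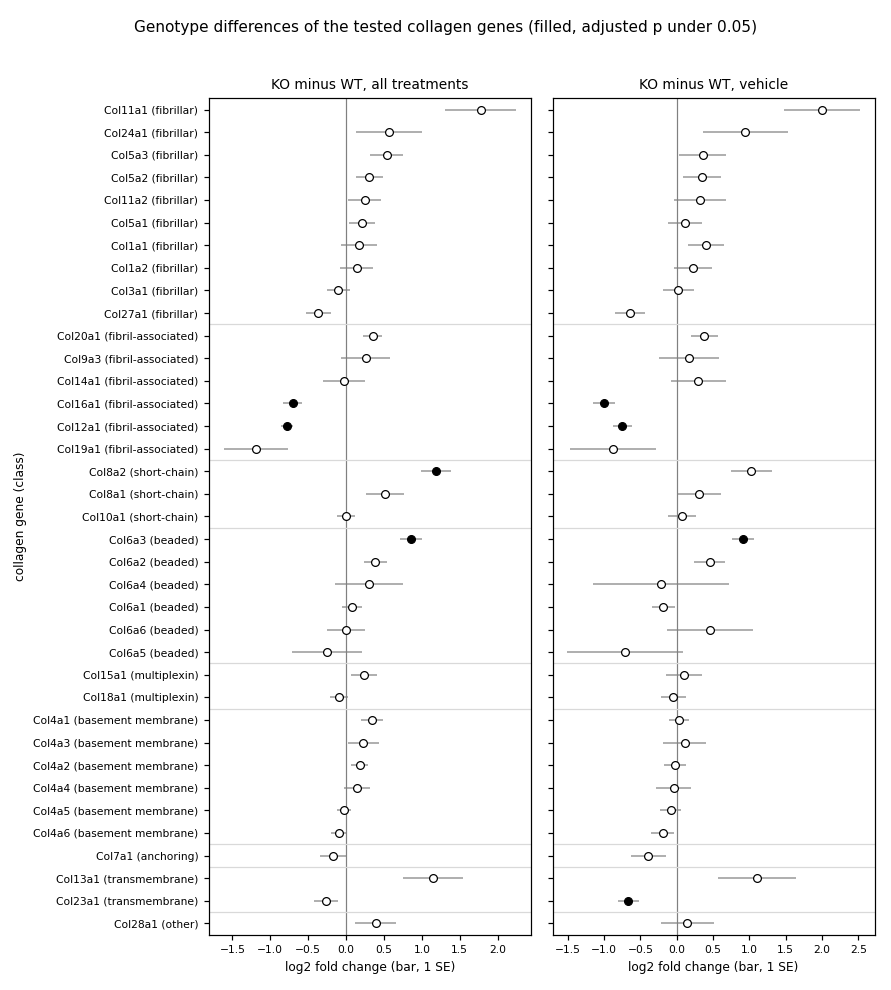
Log2 fold change, KO minus WT, of the 37 tested collagen genes over all treatments and in vehicle skin alone, grouped by class, with bars of 1 SE and filled points at an adjusted p under 0.05. Col16a1 lies at -0.71 and -1.002 and Col6a3 at 0.86 and 0.91 in the 2 panels.

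Whether the treatments acted differently in KO and WT skin was tested as an interaction in edgeR, with each treated group a single library assumed to vary like the vehicle pairs. For the TPA response no member was called, where 0.00519% of all tested genes were called. Before adjustment 5 members had a p under 0.05, a threshold at which no all-gene share was taken. Col4a1 had the lowest p, with a KO response higher by 0.97 ± 0.24 on the log2 scale (adjusted p = 0.443), and Col1a1 stood at -1.17 ± 0.43 (adjusted p = 0.816). For the response to FA before TPA no member was called, and 0% of all tested genes were called. Before adjustment 3 members had a p under 0.05, again without an all-gene share. Col6a3 was at -1.07 ± 0.31 and Col1a1 at 1.39 ± 0.50, each with an adjusted p of 0.9999. DESeq2 called no member in either interaction. Leaving out a vehicle library leaves that group with 1 library. More of all tested genes, and in some of these fits some members, were then called. For TPA the member median ran from 0.19 to 0.39 and the all-gene median from -0.02 to 0.02. For FA they ran from -0.06 to -0.05 and from -0.01 to 0.01.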

How the data were processed

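Raw read counts per Ensembl gene were deposited by the authors, 1 file per library. The submitters' processing notes name Trim Galore for trimming, STAR for alignment, HTSeq for counting and mm10 as the build. No versions, annotation release or strand setting were found in the labels, so overlapping genes on opposite strands cannot be told apart. Of 54232 identifiers, 54165 matched GENCODE M21. Groups and replicate numbers came from the labels.

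Tests were quasi-likelihood F tests of edgeR 4.0.16 (R 4.3.3) on these counts, with TMM scaling and the filterByExpr filter set by treatment at 10 counts, which left 19251 genes. Treatment contrasts and KO minus WT over all treatments came from an additive fit of genotype and treatment, with 4 residual degrees of freedom. KO minus WT in vehicle and both interactions came from 1 mean per group, with 2. Each SE was taken from the fold change and its F value (log2 fold change over root F). TMM factors ran from 0.859 to 1.10. Alternatives were library size only, RLE, no filter, a minimum count of 50, DESeq2 1.42.0, limma-voom 3.58.1, each library left out, and fits of the vehicle libraries alone. The scripts were tested on simulated data. A floor of 3 counts covers counting error only. Motifs were searched on both strands in windows from RefSeq.

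Members and lists were chosen with earlier results of these data known. Named were 8 chains (Col1a1, Col1a2, Col3a1, Col4a1, Col4a2, Col6a1, Col7a1 and Col18a1), called members (with over 12, the 6 largest rises and 6 largest falls at a mean of at least 1 CPM), and up to 4 called genes of lowest p per companion list. Remaining members were named where a class is accounted for. Some companion genes that the rule would name are not reported here. Replicate numbers were not taken as pairs, since no label says that a number marks a shared batch.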

Additional observations from a re-analysis of the deposited data

How the results depend on the processing

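Of 1067 values of single genes under the alternatives, 944 kept their direction and side of the threshold, 92 lost the call, 17 gained it and 14 changed sign. The sign changes were all in differences that were not called. Col4a1 for TPA minus vehicle was 0.0076 with RLE, 0.00082 with DESeq2, 0.0044 with limma-voom, and -0.45 to 0.39 with 1 library left out (0.39 without WT TPA). With 1 library left out, FA+TPA minus TPA ran from -0.067 to 0.32 for Col6a1 and from -1.22 to 0.062 for Col1a1 (0.062 without WT TPA), and FA+TPA minus vehicle ran from -0.39 to 0.044 for Col7a1 and from -0.13 to 0.052 for Col4a2.

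With no filter on low counts, 18 of 41 members were called for FA+TPA minus TPA (10 of 37 with the filter). For KO minus WT over all treatments 7 were called (4 with it). Of all 34515 genes tested with no filter, 2765 and 1552 were called in these comparisons. With the filter 1929 and 690 of 19251 were called. The cause was not tested. Leaving out 1 library gave 11 to 21 called members for TPA minus vehicle, 4 to 12 for FA+TPA minus TPA (4 without WT FA+TPA, 5 without KO FA+TPA, 6 without WT TPA), 11 to 23 for FA+TPA minus vehicle (11 without WT FA+TPA, 15 without KO FA+TPA), 3 to 8 for KO minus WT in vehicle (8 without the second WT vehicle library), and 0 to 4 and 0 to 3 for the interactions with TPA and FA. Fewer libraries also leave fewer residual degrees of freedom.

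The vehicle libraries share numbers 1 and 2. Same-numbered deviations of KO and WT correlated at r = -0.0769 over 18489 genes. With the replicate number as a block, the vehicle libraries alone gave 4 called members for KO minus WT, and 3 without the block.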
